A study of Mus musculus with 32 samples.

Results

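Adult mouse oligodendrocyte progenitor cells (OPCs) given the SUV420 inhibitor A-196 were compared with vehicle cultures of the same age. The comparison holds 8 of the 32 RNA-seq libraries of the series, 4 with the inhibitor (SUV420i) and 4 with dimethyl sulfoxide (DMSO), and its members were taken from the column names, which give age, treatment and a letter from A to D. All cells came from the cortex of wild-type (WT) C57BL/6 mice at postnatal day 60, were selected as O4+ cells and were cultured as primary cells in proliferation medium with PDGF-AA, bFGF and forskolin. The inhibitor was used at 5 µM and DMSO at 0.02%, each for 48 hours. Other libraries of the series, used below for side-by-side values, are neonatal cells from postnatal day 5 under the same agents (5 SUV420i, 5 DMSO) and adult cells given KATi, which is 5 µM garcinol with 0.2 µM NU-9056 (4 libraries). The remaining libraries are neonatal cells given KATi (5) and untreated cells (2 adult, 3 neonatal), and they entered the fit of all 32 libraries. The labels state biological replicates but not whether a letter marks an animal, a litter or a culture day, so the p-values speak of the spread among these libraries. Where a level is lower in such bulk libraries, fewer cells of a type and less RNA per cell cannot be told apart.

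Histone H4 is methylated at lysine 20 in steps. KMT5A adds the first methyl group, and KMT5B and KMT5C, also known as SUV420H1 and SUV420H2, add the next ones. A-196 inhibits the latter pair. The dimethyl form is bound by the repair factor 53BP1 and by the origin recognition protein ORC1, and the trimethyl form is a mark of compact, repeat-rich chromatin. OPCs are the dividing cells of the oligodendrocyte lineage, which either renew or leave the cell cycle and build myelin. The methyl mark itself was not analysed here, so the values below describe transcripts and not the degree of enzyme inhibition.

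Total counts were 23.6 to 33.2 M in the DMSO libraries and 31.8 to 35.6 M in the SUV420i libraries. Mitochondrial genes took 2.74% to 4.5% of counts with DMSO and 2.71% to 3.2% with SUV420i. A single identifier that has no symbol in the annotation used took 2.61%, 1.09%, 1.93% and 0.693% of counts in DMSO letters A to D and 3.07%, 2.52%, 3.09% and 2.9% in SUV420i letters A to D. It was thus higher with the inhibitor in every letter (log2 fold change 1.03 ± 0.21, SE; adjusted p = 0.203 by edgeR within letters), and its part in the results was not tested. All 24 OPC markers on the list passed the filter on low counts. Pdgfra, the receptor of PDGF-AA, stood between 348 and 1348 CPM (counts scaled to library size) in the 8 libraries. Of 18 microglia and macrophage markers, 12 were too low to test and C1qa, C1qb, Trem2 and Tyrobp had no read in any of the 8 libraries. Astrocyte markers were present throughout, with a summed level of 5311 to 7324 CPM with DMSO and 6091 to 8833 CPM with SUV420i. Some genes on that list are also expressed by OPCs. The adult libraries differed most by letter. Of the sum of squares of log2 levels over genes in the 8 libraries, 70.21% lay between letters (3 degrees of freedom), 8.52% between treatments (1 degree of freedom) and 21.27% in the rest (3 degrees of freedom). Mbp, which encodes myelin basic protein, showed this split most plainly among the lineage genes given here. It stood at 6.31, 8.99, 212 and 341 CPM in DMSO letters A to D and at 8.51, 13, 163 and 261 CPM in SUV420i letters A to D.

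Few transcripts separated inhibitor from vehicle beyond the spread of the libraries. With edgeR's quasi-likelihood test on 20259 genes and no term for letter, 0 genes (0.0%) passed an adjusted p of 0.05, and 376 (1.86%) had an unadjusted p under 0.05. DESeq2 without letter also called 0 genes, with a smallest adjusted p of 0.0772. Same-letter libraries of the groups deviated together from their group means, so the comparison was also made within letters. There 1 gene passed (0.00494%), the secretory granule gene Scg2, which rose. At an unadjusted p under 0.05 there were 1009 genes with a positive (4.98%) and 596 with a negative fold change (2.94%). DESeq2 with the same letter term called 25 genes (0.123%), 20 higher (0.0987%) and 5 lower (0.0247%). The intervals, taken gene by gene, were narrower within letters than without. Among the 12174 genes whose mean log2 CPM reached 2, the 95% interval of the fold change within letters lay inside 1.5-fold in either direction for 11778 (96.7%) and inside 2-fold for 12162 (99.9%). Without letters these shares were 77.9% and 95.9%. Over all genes tested, 77.6% lay inside 2-fold within letters and 70.1% without letters. The count within letters depended on single letters. It was 182 without letter A (0.898%; 72 higher, 110 lower), 0 without letter B, 0 without letter C and 1 without letter D, and it was 182 when genes of low count were kept in the fit.

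Scg2 encodes secretogranin II, a protein of dense-core secretory granules and the precursor of the peptide secretoneurin. It lies on chromosome 1 from 79434669 to 79440120 on the minus strand (GRCm38; GENCODE identifier ENSMUSG00000050711). The 4 DMSO libraries held 85.9, 0.317, 26.5 and 52.9 CPM in letters A to D, and the SUV420i libraries 202, 0.617, 56.3 and 81.4 CPM. Every letter was higher with the inhibitor, with log2 ratios of 1.22, 0.83, 1.1 and 0.63, while the groups overlapped because letter B was far below the other letters in both treatments. Its lowest library held 10 reads. The group means were 41.4 ± 36.6 CPM with DMSO and 85.2 ± 85.1 CPM with SUV420i (SD, n = 4 each). Within letters the log2 fold change was 0.98 ± 0.11 (SE; 95% interval 0.74 to 1.23; adjusted p = 0.0158 by edgeR), a fold of 1.98. The call was lost without letter B (0.99, adjusted p = 0.115) and without letter C (0.93, adjusted p = 0.432), and with both ages in 1 fit (adjusted p = 0.0673). Without the letter term the fold change was 1.04 ± 1.03 (unadjusted p = 0.32).

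The RefSeq promoter windows (250 bases before to 50 after a RefSeq transcript start, GRCm38.p6) matched 16 of the 24 leading genes described below and were searched for 2 motifs on both strands. They are the full cyclic AMP response element TGACGTCA, which CREB family factors bind, and the retinoic acid response element for which Rarb is known, written as the half-sites GGTTCA and AGTTCA with 5 bases between them. The first was present in 588 of 32851 promoters (1.79%), or, counted by gene, in 549 of 27025 genes (2.03%). Among the 16 it was present in the promoters of Scg2, Creb5 and Snapc5. The second was written from the element of Rarb, so its match in that promoter was fixed in advance. It was present in 2 promoters (0.00609%). The stretches are shown for the called gene and for Rarb, whose element is well known, with the motif in capitals, and a match describes letters only. The RefSeq starts used, position 79440026 for Scg2 and 16575476 for Rarb, lie inside the genes as GENCODE draws them for counting, so the motifs start 26 bases (Scg2) and 243627 bases (Rarb) downstream of the GENCODE gene starts.
Scg2, chr1:79440076-79440105, minus strand, motif starting 68 bases before the RefSeq start: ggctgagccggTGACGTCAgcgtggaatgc
Rarb, chr14:16575506-16575535, minus strand, motif starting 53 bases before the RefSeq start: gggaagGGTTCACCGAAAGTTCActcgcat

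**Figure D1:**
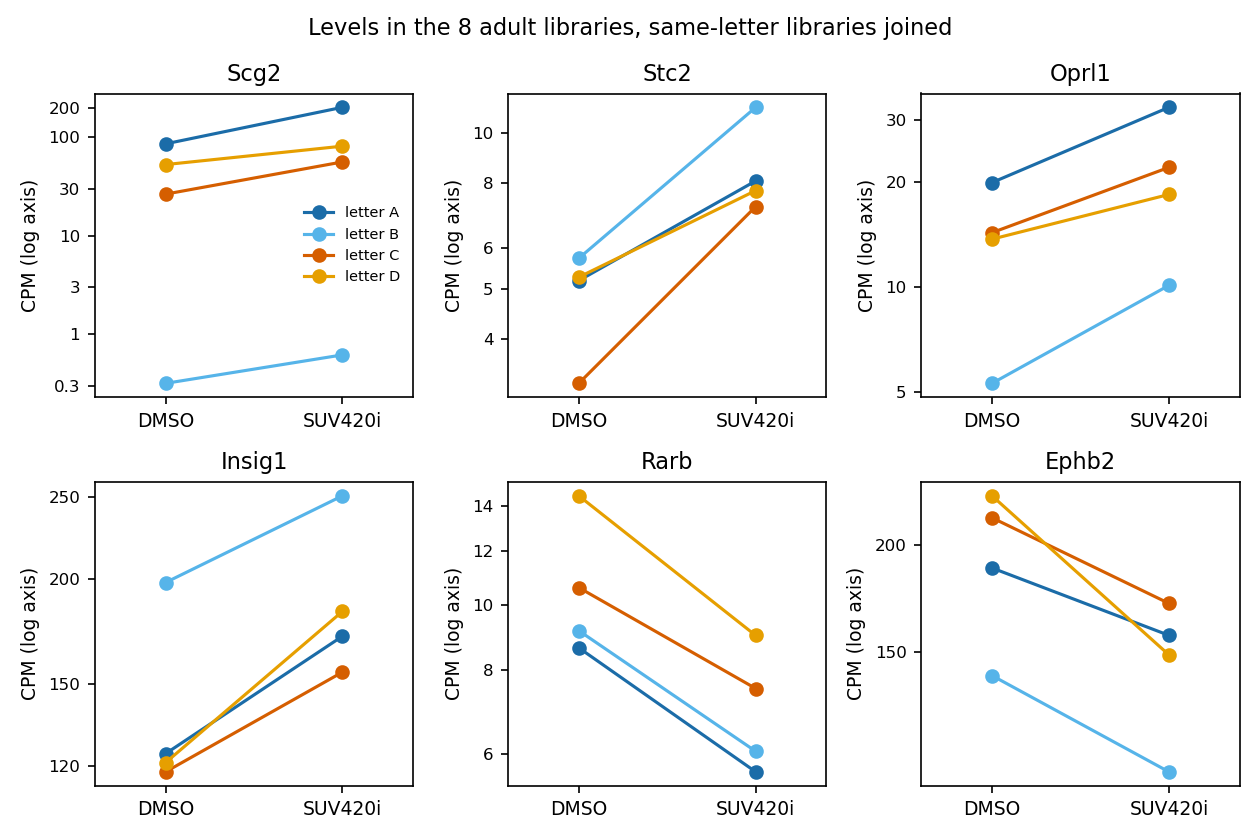
Levels of 6 genes in the 8 adult libraries, in CPM on log axes, with the DMSO and SUV420i libraries of a letter joined by a line. Scg2, Stc2, Oprl1 and Insig1 were higher and Rarb and Ephb2 lower with SUV420i in all 4 letters, and among these 6 the groups were apart for Stc2 alone.

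A further 11 genes with positive and 12 with negative fold changes were selected by the smallest p within letters, the same direction in 4 letters and a mean log2 CPM of 2 or more. None of these 23 passed edgeR's test, with adjusted p between 0.146 and 0.279. The same direction in 4 letters was found for 1923 genes with higher (9.49%) and 1467 genes with lower levels (7.24%), so sharing a direction was part of the rule and common. Among the positive genes, Stc2 encodes stanniocalcin 2, a secreted glycoprotein. Its DMSO libraries held 5.19, 5.73, 3.29 and 5.27 CPM and its SUV420i libraries 8.08, 11.2, 7.21 and 7.74 CPM in letters A to D. Every SUV420i library lay above every DMSO library, as held for 155 of all genes tested (0.765%). The log2 fold change was 0.82 ± 0.13 within letters (adjusted p = 0.146) and 0.81 ± 0.18 without the letter term. Stc2 was called in the fit of 26 treated libraries of both ages with letters as block (adjusted p = 0.0024 by edgeR), where it was the single gene called.

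Several positive genes encode receptors or other membrane proteins. Oprl1 encodes the receptor of the peptide nociceptin. It stood at 19.9, 5.29, 14.3 and 13.7 CPM with DMSO and at 32.7, 10.1, 22 and 18.4 CPM with SUV420i (log2 fold change 0.66 ± 0.1, adjusted p = 0.146). The orphan receptor gene Gpr27 had the most even ratios, 0.68 to 0.75 over the 4 letters (0.72 ± 0.13). Slc6a17, a vesicular amino acid transporter gene, was at 4.74 ± 1.54 and 7.59 ± 2.6 CPM (SD, n = 4 each). Emp2, a tetraspan membrane protein gene, was at 15.2 ± 5.19 and 22.8 ± 9.01 CPM. Tmem100 and Tmem158, both transmembrane protein genes, had log2 fold changes of 0.48 ± 0.09 and 0.62 ± 0.11, and Rhbdl3, a rhomboid family gene, of 0.49 ± 0.09. Apart from Oprl1, these membrane genes shared an adjusted p of 0.153 by edgeR, and for each of them and for Oprl1 the libraries of both groups overlapped.

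Genes with other roles completed the positive group. H2-K1 encodes a class I histocompatibility chain and belongs to a family of similar genes, so reads may be divided among copies. Its levels were 18.2, 27.7, 28.1 and 23 CPM with DMSO and 25.9, 37, 42.2 and 32.4 CPM with SUV420i (0.5 ± 0.08, adjusted p = 0.153). Insig1 encodes a protein of the endoplasmic reticulum that holds back the sterol-regulated transcription factors and is itself one of their targets. It was at 124, 198, 118 and 121 CPM with DMSO and at 171, 251, 155 and 183 CPM with SUV420i (0.45 ± 0.08, adjusted p = 0.153). Letter B was the highest in both groups, and among the other letters all SUV420i libraries lay above all DMSO libraries. Chd3, a chromatin remodelling gene of the NuRD complex, was at 29.6 ± 10.1 and 39.9 ± 12.9 CPM (0.44 ± 0.08). A small RNA gene lies inside Chd3, and no strand setting of the counting is given in the sources used here.

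The negative group had adjusted p of 0.146 and more. Rarb encodes retinoic acid receptor beta, a ligand-activated transcription factor whose gene is a known target of retinoic acid. It was at 8.63, 9.15, 10.6 and 14.5 CPM with DMSO and at 5.65, 6.06, 7.51 and 9 CPM with SUV420i. All 4 letters were lower by a like amount, with ratios of -0.62, -0.61, -0.47 and -0.68 (fitted value -0.6 ± 0.11, adjusted p = 0.153). The Rarb locus overlaps Top2b and an antisense transcript on the other strand, whose reads cannot be told apart without strand.

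Matrix, guidance and cytoskeleton genes followed. Tnc encodes the matrix glycoprotein tenascin C. It stood at 1233, 191, 242 and 607 CPM with DMSO and at 1041, 105, 134 and 522 CPM with SUV420i, and its ratios were -0.87 and -0.84 in letters B and C against -0.26 and -0.21 in letters A and D. Ephb2, a receptor tyrosine kinase gene for ephrin-B ligands, was at 188, 141, 215 and 228 CPM with DMSO and at 157, 109, 171 and 149 CPM with SUV420i (-0.39 ± 0.08, adjusted p = 0.203). Msn encodes moesin, which links actin to the membrane. It was at 321 ± 43.3 and 258 ± 47.4 CPM (SD, n = 4 each; log2 fold change -0.33 ± 0.08, adjusted p = 0.265). Pstpip2, an actin-associated adaptor gene, had a log2 fold change of -0.4 ± 0.09, and Stmn4, a stathmin family gene, of -0.5 ± 0.12.

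The remaining negative genes act in the nucleus or in cyclic AMP signalling. Creb5, which encodes a factor that binds cyclic AMP response elements, was at 53.2 ± 15.8 and 40.4 ± 12.9 CPM (-0.41 ± 0.1, adjusted p = 0.279). Pde8a, a phosphodiesterase gene that degrades cyclic AMP, was at 3.53 to 27.3 CPM with DMSO and at 2.74 to 21.5 CPM with SUV420i (-0.54 ± 0.12). The log2 fold changes were -0.47 ± 0.11 for Hmgn5, a nucleosome-binding protein gene, -0.39 ± 0.09 for Nsrp1, a splicing regulator gene, and -0.48 ± 0.11 for Snapc5, which encodes a subunit of the complex that starts small nuclear RNA transcription. In letter A, Hmgn5 and Nsrp1 were near 0, with ratios of -0.11 and -0.1. Pstpip2, Pde8a, Tnc, Hmgn5, Msn, Nsrp1 and Creb5 each overlap another annotated transcript. For all 12 negative genes the libraries of both groups overlapped.

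DESeq2 with the letter term called 15 of the 24 leading genes. It called 11 of the 12 positive ones, Gpr27 being the exception, and 4 of the 12 negative ones, Rarb, Ephb2 and Tnc among them. Among the others it called, 5 were chosen after their values were seen. Fasn, the fatty acid synthase gene, was at 1015, 911, 877 and 851 CPM with DMSO and at 1234, 1179, 1117 and 1226 CPM with SUV420i, with no overlap between groups. Bhlhe40, a repressor gene, was at 30 to 33.3 CPM with DMSO and at 36.1 to 51.1 CPM with SUV420i, again without overlap. Col4a1, a basement membrane collagen gene, was at 15.5 to 19.2 CPM and 21.4 to 27.8 CPM. Scd1, a fatty acid desaturase gene, was at 322 to 629 CPM and 474 to 709 CPM. The nuclear noncoding RNA Malat1 was at 1263 to 1956 CPM and 1593 to 2749 CPM. Adjusted p-values from DESeq2 were 0.0227 for Fasn, 0.0498 for Bhlhe40, 0.0409 for Col4a1, 0.0409 for Scd1 and 0.00853 for Malat1. The same genes had adjusted p between 0.188 and 0.204 with edgeR within letters. Without letter A, edgeR called 12 of the 12 positive and 10 of the 12 negative leading genes, and without letter B or C it called none of them. When genes of low count were kept in the fit within letters, it called all 12 positive and all 12 negative ones.

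**Figure D2:**
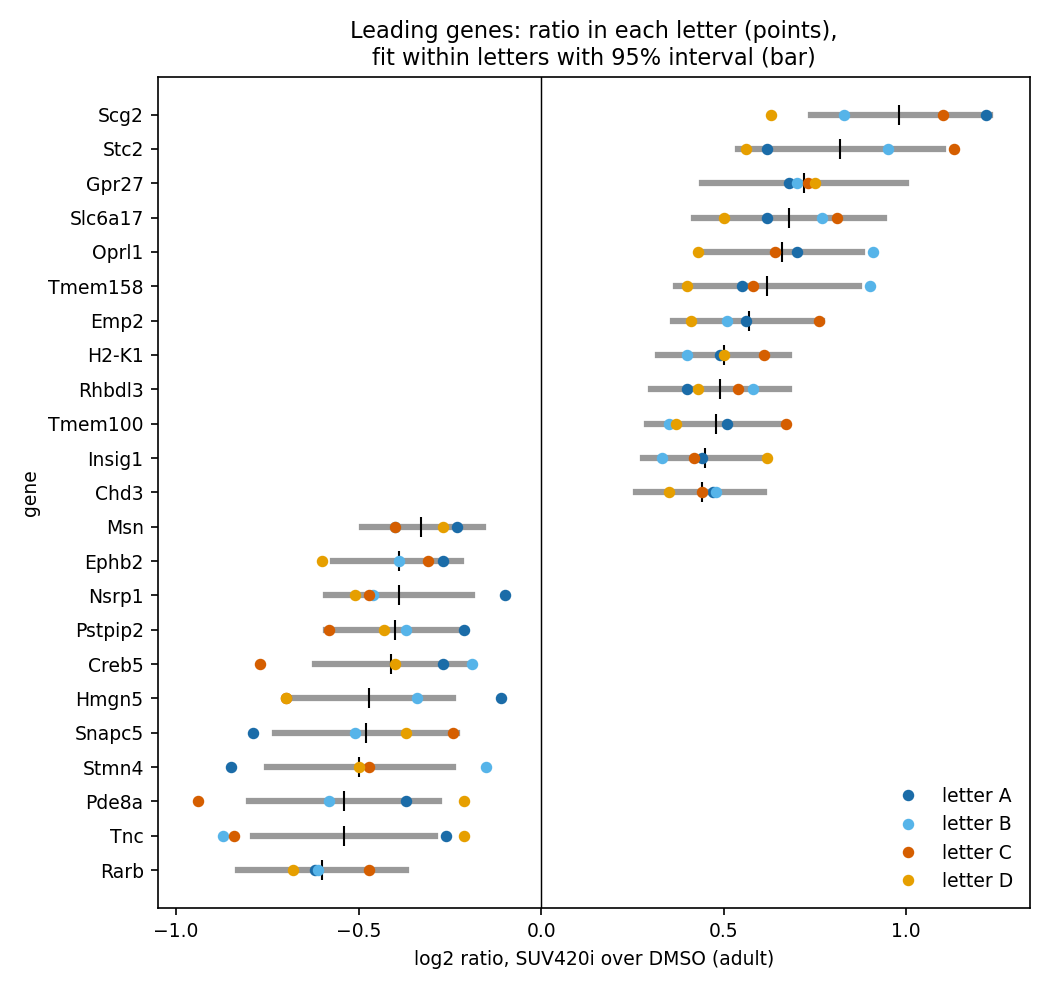
Log2 ratio of SUV420i over DMSO for 23 of the leading genes, with 1 point per letter, a tick for the fit within letters and a grey bar for its 95% interval. All points of a gene lie on the same side of 0, which the naming rule required, and they run from 0.63 to 1.22 for Scg2 and from -0.68 to -0.47 for Rarb.

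No gene of the H4K20 methylation system passed the test. The log2 fold change within letters was -0.13 for Kmt5a (95% interval -0.31 to 0.05), which encodes the monomethylase. It was 0.09 for Kmt5b (-0.1 to 0.27) and 0.06 for Kmt5c (-0.12 to 0.24), which encode the enzymes that A-196 inhibits. Kmt5b was at 77.9, 91.6, 103 and 109 CPM with DMSO and at 99.2, 93.9, 108 and 102 CPM with SUV420i. Kmt5c was at 42.5, 32, 40.9 and 33.9 CPM and at 40.9, 34.3, 40 and 39.4 CPM. The groups overlapped for both, and both intervals exclude a 1.5-fold difference in either direction. Of 6 genes listed as writers of the mark 0 were called, with a median of 0.04 against 0.01 for all genes tested. Among erasers and readers, 0 of 16 were called and the median was -0.03. Trp53bp1, which encodes 53BP1, was at 149 ± 5.15 and 145 ± 12.1 CPM (-0.04, interval -0.21 to 0.13). Orc1 was at 5.36 ± 2.22 and 4.43 ± 2.09 CPM (-0.3, interval -0.6 to -0.01; adjusted p = 0.622 by edgeR). Kat5 and Ep300, acetyltransferase genes that the KATi compounds concern, had intervals of -0.18 to 0.19 and -0.17 to 0.21. Neither the other chromatin methylation enzymes (33 genes, median 0.02) nor the acetyltransferases and deacetylases (24 genes, median 0.04) held a gene called by edgeR or DESeq2. At an unadjusted p under 0.05 these 4 lists held Orc1 among the readers, 3 of the other methylation enzymes and no writer or acetylation enzyme.

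No stage marker of the lineage passed the test. Pdgfra was at 1150, 365, 816 and 843 CPM with DMSO and at 1348, 348, 747 and 815 CPM with SUV420i (interval -0.18 to 0.17). Cspg4, the NG2 proteoglycan gene, a surface marker of OPCs, was at 337 ± 162 and 318 ± 140 CPM (interval -0.23 to 0.11). Gpr17 marks committed cells and was at 795, 46.4, 490 and 504 CPM with DMSO and at 1325, 47, 754 and 315 CPM with SUV420i. Its ratios ran from -0.67 in letter D to 0.72 in letter A, and its interval from -0.2 to 0.56. The Gpr17 locus overlaps Lims2 on the other strand. The letters also differed in sign for Mbp, with 0.41 and 0.51 in letters A and B and -0.36 and -0.37 in letters C and D. Of 24 OPC markers 0 were called and 14 had positive fold changes, with a median of 0.02. For 19 committed and newly formed oligodendrocyte genes the count was 0 and 13 with a median of 0.08, and for 23 myelin genes 0 and 12 with a median of 0. DESeq2 called 0 in these lists too, and 1 OPC marker and 2 myelin genes were lower at an unadjusted p under 0.05 by edgeR, Sox10 (-0.22 ± 0.08), Ugt8a (-0.28 ± 0.11) and Cnp (-0.18 ± 0.08), named after their values were seen. Hes5, a Notch target and OPC gene, was at 32.3 ± 22.8 and 35.9 ± 23.9 CPM (0.22, interval -0.0 to 0.44; adjusted p = 0.632 by edgeR).

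**Figure D3:**
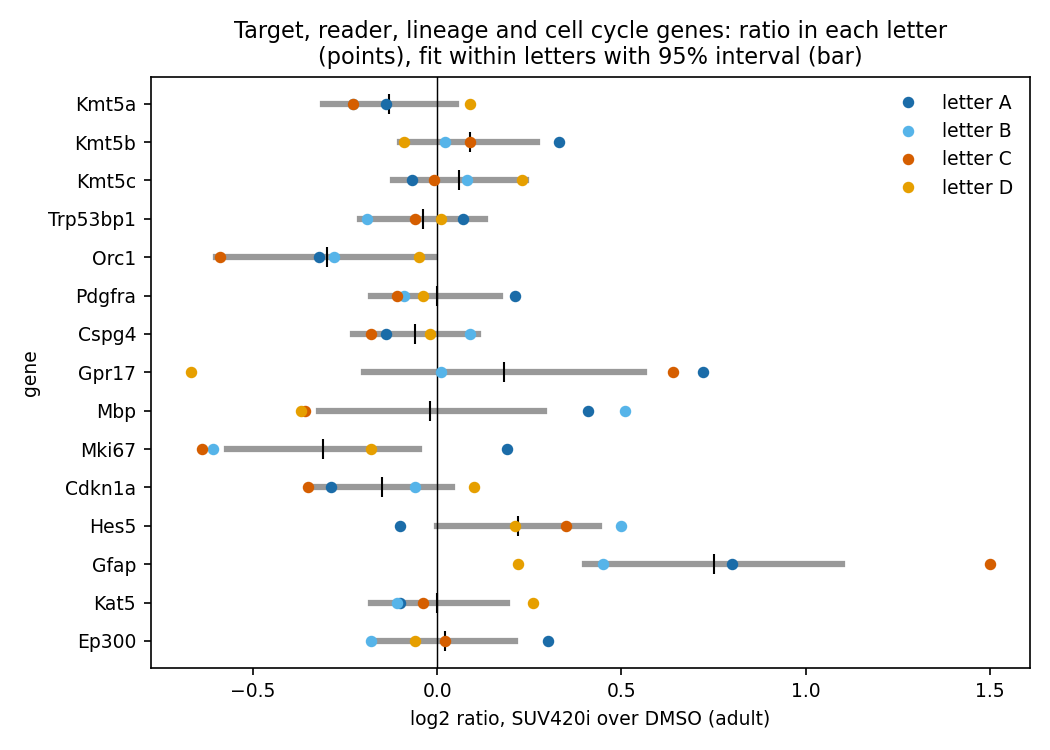
Log2 ratio of SUV420i over DMSO for 15 target, reader, lineage and cell cycle genes, with 1 point per letter, a tick for the fit within letters and a grey bar for its 95% interval. The points of Gpr17 and Mbp fall on both sides of 0, whereas those of Gfap are all positive, from 0.22 to 1.5.

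Proliferation genes had small negative values that differed by letter. Mki67, the proliferation antigen gene, was at 373, 1203, 557 and 859 CPM with DMSO and at 429, 799, 352 and 753 CPM with SUV420i. Letter A was higher and the other 3 letters lower with the inhibitor, and the fitted log2 fold change was -0.31 ± 0.12 (adjusted p = 0.558 by edgeR). Without letter A Mki67 was called (adjusted p = 0.0292). Without letter B, C or D it was not called, with log2 fold changes of -0.21, -0.2 and -0.36. Of 54 genes of G2 and M phase 0 were called, 53 had negative fold changes and 12 had an unadjusted p under 0.05, with a median of -0.17. Of all genes tested, 51.4% had positive fold changes and 2.94% were lower at that p. The median of the list was -0.25, -0.14 and -0.48 in letters A, B and C and 0.19 in letter D. Nusap1, Smc4 and Cenpe, genes of the spindle, the condensin complex and the kinetochore, had the smallest p of the list and log2 fold changes of -0.29 ± 0.09, -0.31 ± 0.1 and -0.35 ± 0.11. They were named after their values were seen, and their adjusted p was 0.423 to 0.427 by edgeR. For 43 genes of G1 to S and S phase 0 were called and 36 were negative, with a median of -0.09 and a letter D median of 0.26. Cdkn1a, which encodes the cell cycle inhibitor p21, was at 316 ± 79.1 and 291 ± 98 CPM (interval -0.34 to 0.04). Of 29 genes of p53 response and arrest 0 were called and the median was 0.01. For 32 genes of double strand break repair it was 0 and -0.06, with 26 negative. DESeq2 called 0 genes in these 4 lists. At an unadjusted p under 0.05 by edgeR, no S phase gene, 2 positive p53 response genes, and 1 positive and 2 negative repair genes were found.

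The replication-dependent histone genes had the list median farthest from 0, 0.33, and 14 of 14 measured members were positive with 0 called by edgeR or DESeq2 and 3 at an unadjusted p under 0.05 (21.4%, against 4.98% of all genes). Of the 14, 9 averaged under 1 CPM with DMSO, and the median was 0 in letter A, 0.18 in letter B, 0.5 in letter C and 0.2 in letter D. The best measured members had smaller values. Hist1h1c, a linker histone gene, was at 110 and 127 CPM on average (0.2 ± 0.08), and Hist1h2bc, an H2B gene, at 44.2 and 51.3 CPM (0.21 ± 0.08). A further 6 of the 20 listed genes were too low to test, and these are near-identical copies among which reads may be split.

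Lipid synthesis genes were mostly on the positive side. Of 27 genes of cholesterol synthesis and its control, 24 had positive fold changes and 9 had an unadjusted p under 0.05, all of the latter positive, against 4.98% positive at that p over all genes. The median was 0.15, or 0.2, 0.04, 0.05 and 0.27 in letters A to D, and edgeR called 0 and DESeq2 called Insig1 alone. Mvd, a decarboxylase gene of the pathway, was at 32.8 and 39.8 CPM on average (0.29 ± 0.08), with ratios of 0.18, 0.34, 0.2 and 0.42. Of 25 genes of fatty acid and myelin lipid synthesis, 20 were positive, with a median of 0.13 and 0 called by edgeR. At an unadjusted p under 0.05, 9 were positive and 1 negative, and DESeq2 called Fasn and Scd1. Scd2, a desaturase gene, was at 4424 and 5662 CPM (0.36 ± 0.09), and Srebf1, which encodes a sterol-regulated transcription factor, at 258 and 309 CPM (0.26 ± 0.08). The 11 liver X receptor targets had a median of 0.08 with 10 positive, 0 called by edgeR or DESeq2 and 1 at an unadjusted p under 0.05. Mvd, Scd2 and Srebf1 were chosen after their values were seen.

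Medians of the signalling, stress and other lists lay between -0.09 and 0.15, against 0.01 for all genes tested. Targets of the Notch, BMP, Wnt and Hedgehog pathways had a median of 0.11, between 0.08 and 0.14 in each letter, with 20 of 25 positive and 0 called. Nrarp, a Notch feedback gene named after its value was seen, was at 8.57 and 11.8 CPM on average (0.5 ± 0.11, adjusted p = 0.204 by edgeR), with ratios of 0.35 to 0.67. The median was 0.1 for interferon response genes (21 of 29 positive) and 0.15 for inflammatory cytokines and chemokines (10 of 13). It was 0.09 for immediate early and growth factor feedback genes (25 measured), 0.02 for glutamate and GABA receptors and ion channels (27 measured), and -0.01 for extracellular matrix and adhesion genes (28 measured). Stress lists had medians of 0.01 for glycolysis and hypoxia (26 measured), -0.02 for the integrated stress and unfolded protein responses (29 measured), 0.02 for heat shock (15 measured) and -0.03 for NRF2 targets (20 measured). The median was -0.09 for 11 aryl hydrocarbon receptor targets, 0.04 for 23 imprinted genes and -0.08 for 5 measured germline and early embryo genes, of 22 listed. No member of these 13 lists was called by edgeR within letters. DESeq2 called H2-K1 of the interferon list, and Col4a1 and Tnc of the matrix list. Of all genes tested, 4.98% were positive and 2.94% negative at an unadjusted p under 0.05 by edgeR. At that p, positive members made up 20% of the Notch, BMP, Wnt and Hedgehog targets, 24% of the immediate early genes and 19.2% of the glycolysis and hypoxia genes. The positive and negative members numbered 5 and 0 for the Notch, BMP, Wnt and Hedgehog targets, 2 and 0 for interferon, 2 and 0 for cytokines, 6 and 1 for immediate early genes, 2 and 0 for receptors and channels, and 3 and 4 for matrix. They were 5 and 0 for glycolysis and hypoxia, 1 and 1 for the integrated stress and unfolded protein responses, 0 and 2 for heat shock, 1 and 0 for NRF2 targets, 3 and 0 for imprinted genes, and 0 and 0 for the aryl hydrocarbon receptor and germline lists.

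**Figure D4:**
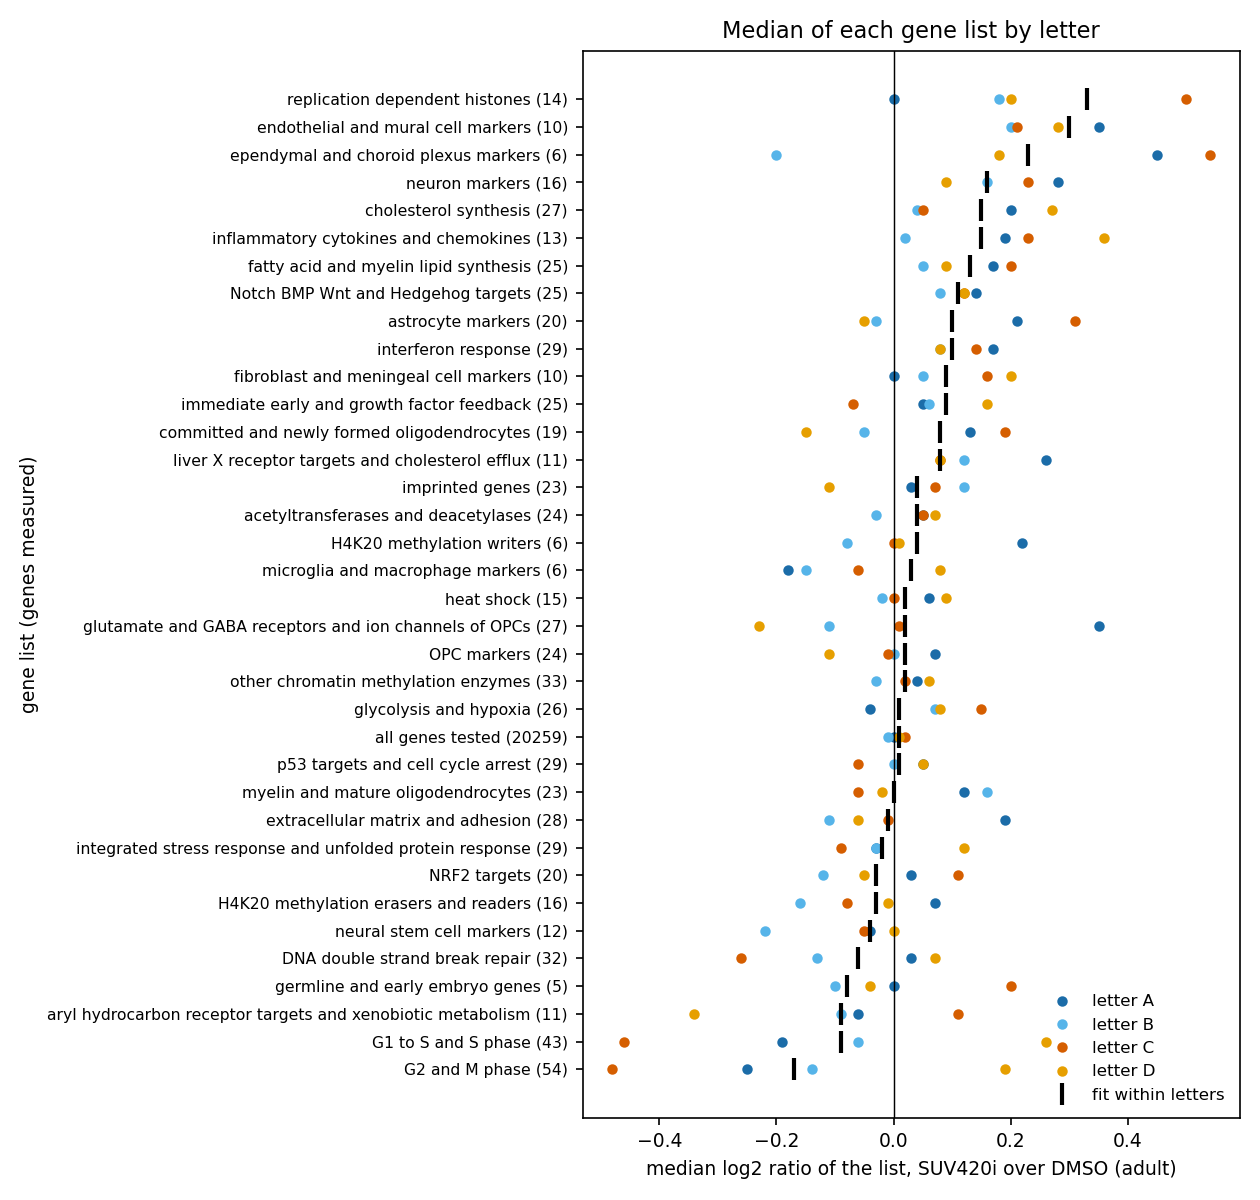
Median log2 ratio of SUV420i over DMSO for 35 gene lists and for all genes tested, with 1 point per letter and a black tick for the median of the fit within letters. Ticks lie between -0.1 and 0.1 for 26 lists, and the cell cycle lists have letter C at -0.48 and -0.46 and letter D at 0.19 and 0.26.

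Markers of other cell types were checked in the same libraries. Gfap, the intermediate filament gene of astrocytes, was at 9.51, 12.6, 75.8 and 67.8 CPM with DMSO and at 16.8, 17.3, 211 and 78.4 CPM with SUV420i. All letters were higher with the inhibitor, with ratios of 0.8, 0.45, 1.5 and 0.22, and the fitted value was 0.75 ± 0.16 (adjusted p = 0.205 by edgeR). Gfap was called without letter A (adjusted p = 0.0399 by edgeR) and when genes of low count were kept in the fit. Without letter B, C or D it was not called, nor with DESeq2 within letters (adjusted p = 0.459). Letters C and D were above letters A and B in both treatments. Of 20 astrocyte genes 0 were called, 16 were positive and 6 (30%) were positive at an unadjusted p under 0.05, against 4.98% of all genes, with a median of 0.1, or 0.21, -0.03, 0.31 and -0.05 in letters A to D. Aldoc and Aqp4, both astrocyte genes named after their values were seen, had log2 fold changes of 0.21 ± 0.08 and 0.36 ± 0.16. Neuron markers had a median of 0.16 (11 of 16 positive), endothelial and mural cell markers 0.3 (8 of 10), fibroblast and meningeal markers 0.09 (8 of 10), ependymal and choroid plexus markers 0.23 (5 of 6), microglia and macrophage markers 0.03 (3 of 6) and neural stem cell markers -0.04 (3 of 12). By edgeR none of their members was called, and DESeq2 within letters called Tnc, a gene of the neural stem cell list. At an unadjusted p under 0.05 by edgeR, positive and negative members numbered 3 and 2 for neurons, 1 and 0 for endothelial and mural cells, 0 and 1 for fibroblasts, 1 and 0 for ependyma, 0 and 0 for microglia and 0 and 3 for neural stem cells, where 4.98% and 2.94% of all genes were so. The endothelial and mural list summed to 10.2 to 33.8 CPM with DMSO and 10.9 to 47 CPM with SUV420i, and the neuron list to 1474 to 1665 and 1276 to 1966 CPM. Cldn5 and Cdh5, defining endothelial genes, were too low to test. The part of these levels in the results was not tested.

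Neonatal OPCs gave values from other libraries, with other vehicle controls. Not every same-letter pair of neonatal libraries deviated together (correlations of -0.15 to 0.76), so values of both ages were read from the fit without letters. Of the 12 positive leading genes 12 were positive in neonatal cells, and of the 12 negative ones 10 were negative, whereas 55.8% of all genes tested shared their sign between the ages. For this share and the next, the adult sign came from the fit within letters. Both shares include genes of low level, which the rule for the leading genes left out. Between the ages, fold changes without letters correlated at 0.1 (Pearson) over all genes and at 0.31 where the mean log2 CPM reached 2. An unadjusted p under 0.05 in the same direction was found in neonatal cells for 5 of the positive and 2 of the negative genes, against 5.07% of all genes. No gene was called by edgeR in neonatal cells (0.0%), where 1577 had an unadjusted p under 0.05 (7.78%), nor with DESeq2 or edgeR in the test of the difference between ages (0.0%), where 486 had an unadjusted p under 0.05 (2.4%) by edgeR. Of the 24 leading genes 0 had an unadjusted p under 0.05 in that test. With letters as block, which paired every adult letter but not every neonatal one, 4 of the positive and 3 of the negative genes had one. This compares with 7.08% of all genes, and again no gene was called by edgeR.

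Msn was at 321 to 379 CPM in 5 neonatal DMSO libraries and at 237 to 289 CPM in 5 SUV420i libraries. Its log2 fold changes were -0.37 ± 0.11 in neonatal (unadjusted p = 0.00195) and -0.32 ± 0.12 in adult cells. Oprl1 was at 5.64 to 6.88 and 7.76 to 11 CPM (0.66 ± 0.3 in neonatal and 0.65 ± 0.33 in adult cells). Rarb was at 3.95 to 12.5 and 2.09 to 6.9 CPM, with overlap (-0.94 ± 0.3 and -0.6 ± 0.33). For Stc2 the neonatal range was 7.96 to 11.5 CPM with DMSO and 10.9 to 15.2 CPM with SUV420i (0.42 ± 0.15 and 0.81 ± 0.18; unadjusted p of the difference 0.0996). Scg2 was at 22.3 ± 15.8 and 46.2 ± 30.9 CPM (SD, n = 5 each), with a log2 fold change of 1.04 ± 0.93 against 1.04 ± 1.03 in adult cells. With letters as block, the neonatal value of Scg2 was 1.04 ± 0.17, with 5 letters positive. That of Rarb was -0.91 ± 0.16, with 0 letters positive (adjusted p = 0.222 for both by edgeR). Insig1 and Emp2 had smaller neonatal values, 0.1 ± 0.14 and 0.13 ± 0.25, against 0.44 ± 0.16 and 0.58 ± 0.28, and those differences had an unadjusted p of 0.117 and 0.238 by edgeR without letters. With letters as block the unadjusted p was 0.00691 and 0.00479, with an adjusted p of 0.655 for both. Hmgn5 and Nsrp1 had the opposite sign in neonatal cells, 0.11 ± 0.31 and 0.11 ± 0.23. Their unadjusted p for the difference between ages was 0.217 and 0.153 without letters and 0.00809 and 0.00723 with letters as block (adjusted p = 0.655 for both by edgeR). List medians were also read from the fit without letters at both ages. They were 0.05 in neonatal and 0.14 in adult cells for cholesterol synthesis, and 0.06 and 0.13 for fatty acid and myelin lipid synthesis. For G2 and M phase they were -0.01 and -0.15, for S phase 0.1 and -0.05, and for histones 0.04 and 0.38.

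**Figure D5:**
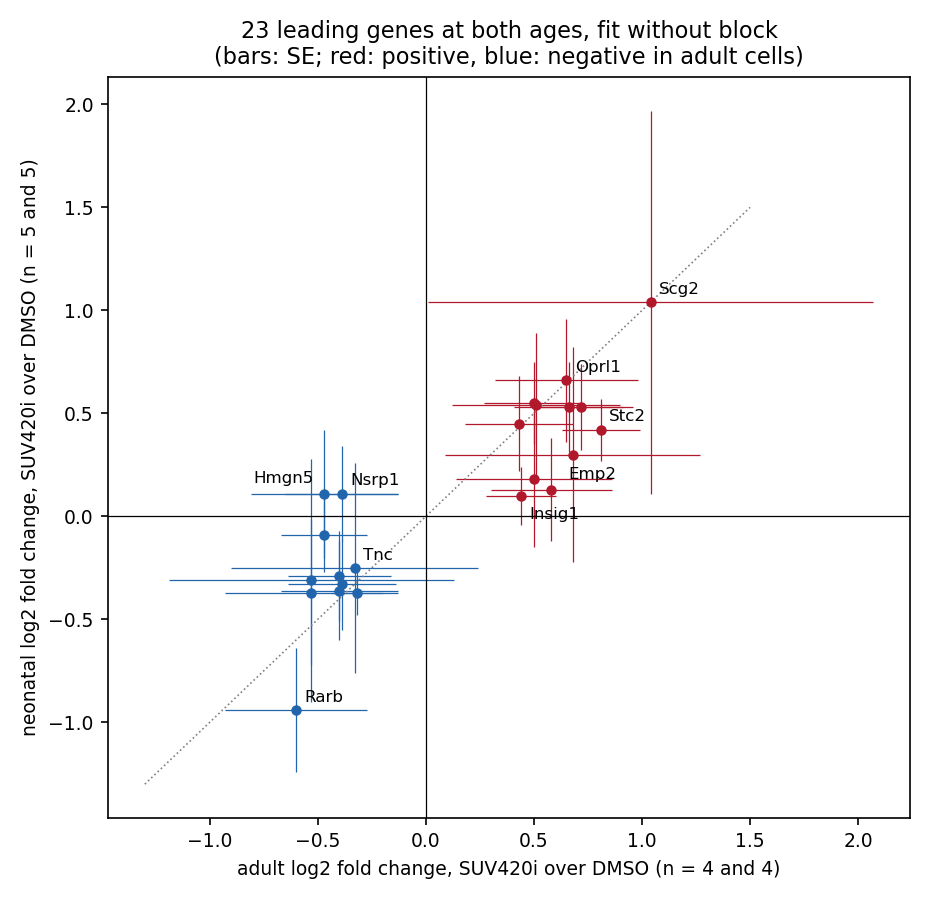
Log2 fold change of SUV420i over DMSO in adult cells (horizontal) and neonatal cells (vertical) for 23 of the leading genes, from the fit without letters, with bars of 1 SE and a dotted line of equal values. The 12 positive genes (red) lie above 0 on both axes, and 9 of the 11 negative genes shown (blue) below 0 on both, with Hmgn5 and Nsrp1 above 0 on the vertical axis.

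The adult KATi libraries allow both inhibitors to be set side by side. SUV420i and KATi used the same DMSO libraries, so each has its own value against DMSO, from the fit without letters. Scg2 was at 1.04 ± 1.03 with SUV420i and 0.02 ± 1.02 with KATi, Oprl1 at 0.65 ± 0.33 and -0.22 ± 0.33, and Tmem100 at 0.51 ± 0.39 and -0.47 ± 0.39. Stc2 was positive with both, 0.81 ± 0.18 and 0.33 ± 0.18, and Stmn4 negative with both, -0.53 ± 0.4 and -0.54 ± 0.4. Directly compared, SUV420i and KATi differed in 0 genes without letters (0.0%, with 871 or 4.3% at an unadjusted p under 0.05) and in 416 genes within letters (2.05%), 291 higher (1.44%) and 125 lower (0.617%) with SUV420i. DESeq2 without letters called 3, Ehd2, Adarb1 and Msn. This contrast shares the SUV420i libraries with the one that chose the leading genes, so their values are given as a description. The log2 difference within letters was 0.89 ± 0.11 for Scg2, 0.93 ± 0.1 for Tmem100, 0.92 ± 0.13 for Oprl1, -1.13 ± 0.12 for Tnc and -0.58 ± 0.08 for Msn. Hes5 and Gpr17, named whatever their values, differed by 0.97 ± 0.11 and 1.11 ± 0.16 (adjusted p = 0.000978 and 0.00503 by edgeR within letters). Against DMSO and without letters, KATi gave -0.83 ± 0.74 and -0.95 ± 1.05 for the same genes, and SUV420i 0.15 ± 0.73 and 0.41 ± 1.04. Within letters KATi gave -0.76 ± 0.14 for Hes5 (adjusted p = 0.203 by edgeR) and -0.94 ± 0.1 for Gpr17 (adjusted p = 0.0245), which was the 1 gene called in that comparison (0.00494%), and SUV420i gave 0.22 ± 0.1 and 0.18 ± 0.18. Same-letter deviations of the KATi and DMSO libraries correlated at 0.09 to 0.79, so the lowest of the 4 pairs was just under the 0.1 asked of a pairing.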

How the data were processed

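RNA-seq counts per gene were deposited by the authors as 1 table of raw counts for 32 libraries (56980 identifiers). Per the submitters' processing notes they used CASAVA 1.8.2, Subread, featureCounts, DESeq2 and the build mm10. The strand setting is not given in the sources used here. Symbols came from GENCODE M21 (GRCm38), and 4907 identifiers with 2.373% of counts had none.

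The deposited counts were tested with edgeR 4.0.16 (R 4.3.3; quasi-likelihood, TMM factors, filterByExpr with a minimum count of 10). 20259 genes holding 99.95% of counts were tested, called at a Benjamini-Hochberg adjusted p of 0.05. The first fit used 32 libraries in 8 groups, and the second used the 8 adult libraries with the letter as block. SE is the fold change over the square root of F, and CPM is TMM-normalised. A ratio by letter is a difference of log2 CPM with a prior count of 2. DESeq2 1.42.0 and limma 3.58.1 (voom) were alternatives, and the fits were tested on simulated data. Within each of the 8 groups, no 2 libraries were near-copies (chi-square per degree of freedom of 13.1 or more for every pair).

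Letters pair the adult DMSO and SUV420i libraries. Deviations from group means correlated at 0.52 to 0.79 within letters and at -0.53 to 0.21 otherwise. For adult KATi and SUV420i these were 0.27 to 0.73 and -0.46 to 0.22. For neonatal DMSO and SUV420i the range was -0.15 to 0.76 within letters, which did not meet the rule of every pair over 0.1.

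Named genes were the 12 most positive and 12 most negative called genes within letters (average log2 CPM of at least 2, same direction in 4 letters, no predicted, mitochondrial or ribosomal genes), filled by smallest unadjusted p, plus 16 always named; others are said to be chosen after their values were seen. Some genes that meet these rules are left out of the text and figures. The comparison, the 35 gene lists (798 symbols, 715 measured) and the tests were chosen with earlier results of these data known.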

Additional observations from a re-analysis of the deposited data

Results flagged for a closer look

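Among 90 groups of 4 libraries (the named genes and library measures in adult cells), 2 held a library far from the other 3. A gap of this kind arises by chance in about 1 of 20 groups. Insig1 stood at 198 CPM in the DMSO library of letter B and at 118 to 124 CPM in the other DMSO libraries, and the SUV420i library of letter B was again the highest at 251 CPM. Nsrp1, a splicing regulator gene, stood at 47.4 CPM in the same DMSO library and at 29.6 to 32.3 CPM in the others.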

How the results depend on the processing

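Without the letter term, the count of called genes stayed at 0 with RLE scaling, DESeq2, no filter, the 8 adult libraries alone, each library left out in turn (0 to 0) and letters A and B or C and D left out. With the replicate block it was 1 in the 8 adult libraries (Scg2) and 1 in 26 treated libraries of both ages (Stc2). Within letters the count of 1 was 25 with DESeq2, 182 with no filter, 0 without the replicate block and 0 to 182 with a letter left out, and it was 1 with RLE scaling, with voom and with the KATi libraries in the fit. The count for SUV420i against KATi was 416 with the replicate block and 3 with DESeq2. The age difference called 0 genes with the replicate block (1435 at an unadjusted p under 0.05), as did neonatal SUV420i against DMSO. With that block, 9 positive and 7 negative leading genes had an unadjusted p under 0.05 in the same direction in neonatal cells (11.2% of all genes), and the age difference had one in 4 and 3.

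Over 40 named genes and their settings, 335 values kept direction and call, 62 gained a call, 3 (all Scg2) lost one and 0 called values reversed. The sign of 7 named genes without a call changed in at least 1 setting. No list median moved by more than its SD over letters. Without letters the median interval half-width was 0.31 on the log2 scale, against 0.2 within letters, among genes whose mean log2 CPM reached 2. The cause was not tested.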

Other observations

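Rarb was among the leading negative genes, and other retinoid genes were looked up after its value was seen. Of 20 genes in the set, Rarb included, 16 were measured, with 10 positive, 6 negative and a median of 0.08. Rara, another retinoic acid receptor gene, had a log2 fold change within letters of 0.39 ± 0.14, Rxra, which encodes a partner receptor, 0.1 ± 0.08, and Aldh1a1, a retinoic acid synthesis gene, 0.35 ± 0.12. Cyp26b1, which encodes an enzyme that degrades retinoic acid, had 0.14 ± 0.2. Negative members of the set included Rarg, a further receptor gene, at -0.09 ± 0.1, and Tgm2 at -0.28 ± 0.23. None of these was called by edgeR, and the unadjusted p was 0.015 for Rara and 0.012 for Aldh1a1.

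Across genes whose mean log2 CPM reached 2, the fold changes of the inhibitor in adult and in neonatal cells, from the fit without letters, correlated with a Pearson coefficient of 0.31 and a Spearman coefficient of 0.26 over 12174 genes. The groups share no library, and genes are not independent replicates.

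A few genes of low level had large ratios that were alike in sign in the 4 letters. Ptgs2, the inducible cyclooxygenase gene, was at 0.226 and 0.718 CPM on average with DMSO and SUV420i (log2 fold change 1.63 ± 0.41, adjusted p = 0.303 by edgeR within letters). Socs2, a feedback gene of cytokine signalling, was at 1.37, 0.253, 1.59 and 1.43 CPM with DMSO and at 1.74, 0.757, 6.04 and 2.57 CPM with SUV420i (1.16 ± 0.26, adjusted p = 0.24). From the fit without letters its log2 fold change was 1.26 ± 0.56 in adult and 1.16 ± 0.53 in neonatal cells. Ogn, a proteoglycan gene of fibroblasts, was at 3.24 and 1.69 CPM (-0.9 ± 0.19, adjusted p = 0.203), lower in every letter. These 3 genes were chosen after their values were seen.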
